A study of Mus musculus with 2 samples.

Results

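Hormones and local signals that act on contraction of the myoepithelial cells of the breast and the muscle of blood vessels were followed here through 10 genes. They are the receptors Oxtr, Avpr1a, Ednra, Ednrb, Agtr1a, Ptger1 and Ptger4, the endothelin precursors Edn1 and Edn3, and the endothelin-converting enzyme Ece1. The genes were taken by symbol from both expression tables, and all 10 were found among 22558. The study sequenced RNA from 2 libraries of cells freshly dissociated from breast tumours of FVB mice and sorted by flow cytometry, without any treatment. The first holds tumour-initiating cells (TIC) and the second non-tumorigenic cells (NTC). The sources used here do not give the age of the mice, the alleles or agents that gave rise to the tumours, the number of animals behind each library or the sorting gate. With 1 library per group there is no replicate check, so every difference below is between these 2 libraries and carries no test, SD or p-value.

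Oxytocin is released from the pituitary during suckling, and its receptor on myoepithelial cells raises calcium through Gq proteins so that the cells squeeze milk out of the alveoli. Endothelins are small peptides that a converting enzyme cuts from a larger precursor. They act through the A receptor, which contracts smooth muscle, and the B receptor, which also clears the peptide. Angiotensin II and vasopressin contract vessels through related Gq-coupled receptors. Prostaglandin E2 acts through a family of receptors, of which Ptger1 raises calcium and Ptger2 and Ptger4 raise cyclic AMP.

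The receptors did not move as a group: Oxtr was higher in TIC, while Ednra, Ptger1 and Ptger4 and the ligand gene Edn1 had higher values in NTC, that of Ptger1 being uncertain. Levels are in FPKM, a count of fragments adjusted for transcript length and library size, and ratios are log2((TIC + 1)/(NTC + 1)), which understates the difference of low genes. Of the 10 genes, 7 had a mean of at least 1 FPKM over the libraries and are called measured, while Ednrb, Edn3 and Avpr1a did not reach it. Edn1 and Ptger4 reached that mean through NTC alone, so their count among the lower genes partly follows from the filter. Oxtr was the 1 gene of the 7 at least 2-fold higher in TIC, against 14.6% of all 12004 measured genes. Ednra, Ptger1, Ptger4 and Edn1, 4 of the 7, were lower in TIC by 2-fold or more, against 13.8% of measured genes. The median log2 ratio was -1.41 for the 7 and -0.16 for all measured genes. The median of the 7 is the ratio of Ptger4 itself, so it too partly follows from the filter. Ece1 and Agtr1a lay within 2-fold.

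**Figure D1:**
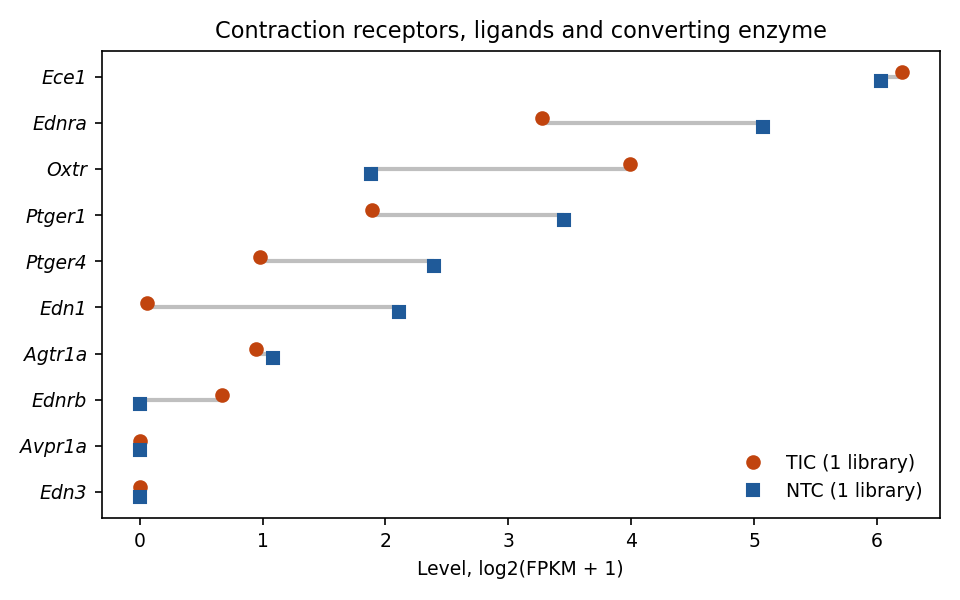
Level of each of the 10 genes on the log2(FPKM + 1) axis, with the TIC library as circles and the NTC library as squares. Oxtr is the only gene of the 7 measured with its circle far to the right of its square (14.9 against 2.68 FPKM), and Avpr1a and Edn3 sit at 0 in both.

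Depth and the identity of the libraries bear on all of these values. Low values of short olfactory and vomeronasal receptor genes, taken as 1 read each within a fixed window, gave a rough depth. It put a level of 1 FPKM at about 21.0 (TIC) and 21.6 (NTC) reads for each kb of transcript. An entry of 0 is not read as absence, since Ndufs5, a subunit of mitochondrial complex I, was listed at 0 in both libraries. All 6 basal and myoepithelial markers (Krt5, Krt14, Trp63, Acta2, Myh11 and Cnn1) were higher in TIC by 2-fold or more, with summed levels of 3636 FPKM in TIC and 29.5 FPKM in NTC. All 6 luminal markers (Krt8, Krt18, Krt19, Elf5, Csn2 and Csn3) were lower by as much, with sums of 74.1 and 5287 FPKM. The TIC library thus carried the basal set and the NTC library the luminal set. Of all measured genes, 14.6% were higher and 13.8% lower in TIC by 2-fold or more. Myh11 and Cnn1 passed the filter through TIC alone and Elf5 through NTC alone.

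The upstream sequences of the 4 genes with the clearest differences and an entry in the promoter table are shown so that the gene on one side, Oxtr, can be read against the 3 on the other, Ednra, Edn1 and Ptger4. They are from RefSeq on build GRCm38.p6, 5′ to 3′ on the strand of the gene, and reach from 250 bases before the annotated start to the first base that any GENCODE exon of the gene covers. The Oxtr stretch is chr6:112489944-112490075 (minus strand), the Ednra stretch chr8:77724465-77724702 (minus strand), the Edn1 stretch chr13:42301226-42301475 (plus strand) and the Ptger4 stretch chr15:5244188-5244437 (minus strand). Capitals mark matches to the motifs listed after the sequences.
Oxtr: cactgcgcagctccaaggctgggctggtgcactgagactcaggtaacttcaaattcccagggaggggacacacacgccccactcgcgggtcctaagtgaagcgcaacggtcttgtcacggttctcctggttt
Ednra: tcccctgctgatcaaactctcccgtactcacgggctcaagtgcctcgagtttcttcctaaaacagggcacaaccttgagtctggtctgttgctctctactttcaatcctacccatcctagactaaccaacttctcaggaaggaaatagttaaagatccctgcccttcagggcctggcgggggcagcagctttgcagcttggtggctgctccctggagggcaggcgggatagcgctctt
Edn1: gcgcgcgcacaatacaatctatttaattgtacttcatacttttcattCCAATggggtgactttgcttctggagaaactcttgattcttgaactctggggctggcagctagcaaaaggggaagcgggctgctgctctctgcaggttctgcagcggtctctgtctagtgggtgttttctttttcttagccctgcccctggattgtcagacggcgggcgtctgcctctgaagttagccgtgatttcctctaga
Ptger4: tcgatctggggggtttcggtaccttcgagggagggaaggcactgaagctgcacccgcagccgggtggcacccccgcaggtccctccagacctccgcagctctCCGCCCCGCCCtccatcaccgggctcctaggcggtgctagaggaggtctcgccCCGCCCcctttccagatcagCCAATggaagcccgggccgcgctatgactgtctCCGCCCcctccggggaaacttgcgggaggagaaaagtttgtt

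Promoter windows were found for 8 of the 10 genes. Each 250-base window was searched on both strands for TATAAA (held by 12.4% of 32851 promoters of that length), CCAAT (33.8%), GGGCGG (32.7%), TGANTCA (6.75%), AGATAA (9.99%) and the CArG box, the binding motif of serum response factor (1.47%). Ptger4 held 4 GGGCGG matches, of which the first pair shares a base, and 1 CCAAT match. Edn1 held 1 CCAAT match at -203 to -199 and none of the others. Oxtr held a single GGGCGG match at -49 to -44, outside the stretch printed, and Ednra held no match. The CArG box was in none of these 4 windows. Matches are descriptions of letters, and their absence says only that the letters are not in the window.

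Oxtr, the oxytocin receptor (chromosome 6, 112423678 to 112439802, build mm9), had 14.9 FPKM in TIC and 2.68 FPKM in NTC. The level in TIC was 5.56 times that in NTC, and the log2 ratio was 2.11. Of all measured genes, 841 had a larger ratio. The lower value is not a trace: with GENCODE transcripts of 3.72 to 4.70 kb, 2.68 FPKM corresponds to about 216 to 273 reads in NTC, against about 1166 to 1475 in TIC. In TIC, Oxtr was the highest of the 6 receptors listed above 0, ahead of Ednra, while in NTC it ranked below Ednra, Ptger1 and Ptger4.

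The excess of Oxtr in TIC was smaller than that of each of the 6 basal markers. These markers had log2 ratios from 2.99 (Krt14, 134.3 against 16.0 FPKM) to 8.20 (Acta2, 2101 against 6.13 FPKM), all above the 2.11 of Oxtr. Of the 12 contractile genes described below, Myl6 (0.49), Lmod1 (1.22), Smtn (1.35), Tpm1 (1.60) and Cald1 (1.69) had smaller ratios than Oxtr. The rest of the 12 had larger ones. In bulk RNA, fewer cells of a type and less RNA per cell cannot be told apart. The named genes whose pair of levels lay nearest to that of Oxtr, by distance on the log2(FPKM + 1) scale over the 2 libraries, were Cdr2 (15.4 against 2.63 FPKM), Stk17b (14.2 against 2.53) and Obsl1 (13.9 against 2.58). With 2 libraries this likeness is that of 2 values only.

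Of the other genes of the oxytocin and vasopressin system, only Lnpep was measured, and it lay within 2-fold. The hormone genes Oxt and Avp and the vasopressin receptors Avpr1a (chromosome 10, 121885555 to 121890509, build mm9), Avpr1b and Avpr2 were listed at 0 in both. Lnpep, the aminopeptidase that degrades oxytocin, had 15.7 FPKM in TIC and 16.5 FPKM in NTC, from an entry that joins several gene identifiers. Oxtr was thus the 1 receptor of the pair of posterior pituitary hormones listed above 0 in either library.

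Of the endothelin genes, the A receptor Ednra and the precursor Edn1 were higher in NTC, while the converting enzyme Ece1 lay within 2-fold. Edn1, the precursor of endothelin 1 (chromosome 13, 42396639 to 42403358, build mm9), had 0.0444 FPKM in TIC and 3.31 FPKM in NTC, a log2 ratio of -2.05 that came within 2-fold (-0.72) with a pseudocount of 5 FPKM. On its 2.14 kb transcript these levels stand for about 1.99 reads in TIC and 153 in NTC, so the low value rests on almost no reads and no fold is given. Edn2, another endothelin precursor, had 0.0868 against 1.23 FPKM, its mean below 1 FPKM. Edn3 (chromosome 2, 174586274 to 174609543), the precursor of endothelin 3, was listed at 0 in both.

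Of the endothelin receptors, the A type had the higher level in both libraries. Ednra (chromosome 8, 80186928 to 80248351, build mm9) had 8.69 FPKM in TIC and 32.7 FPKM in NTC, about 661 and 2558 reads. NTC was 3.76 times as high, the log2 ratio was -1.80, and 723 measured genes had a smaller ratio. Ednrb (chromosome 14, 104213842 to 104243390), the B type, had 0.594 FPKM in TIC, about 33.3 to 51.2 reads, and was listed at 0 in NTC. Ednra thus held 93.6% of the summed receptor level in TIC (9.29 FPKM). No share is given for NTC, where the 0 of Ednrb is not read as absence. Ednra and Edn1 were higher in the same library, NTC. For Ednrb, which was not measured and was listed at 0 there, no direction is read.

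**Figure D2:**
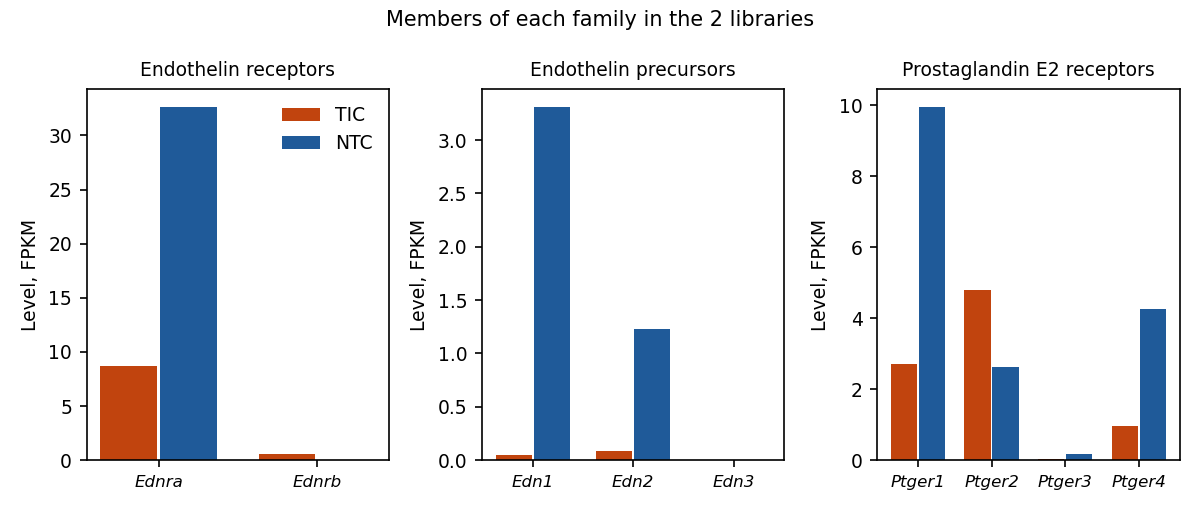
Levels in FPKM of the endothelin receptors, the endothelin precursors and the prostaglandin E2 receptors, as bars from 0 for TIC and NTC on a separate axis for each family. Ednra and Edn1 are higher in NTC, and Ptger2 is the prostaglandin receptor that is higher in TIC (4.79 against 2.62 FPKM).

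Ece1 and the other peptidases of the pathway differed from this. Ece1 (chromosome 4, 137418152 to 137521144, build mm9) had the highest level of the 10 genes in both libraries, 72.6 FPKM in TIC and 64.6 FPKM in NTC, with a log2 ratio of 0.17. Its entry joins several gene identifiers, so neighbouring transcripts may share in the value. Ece2, a related converting enzyme with an entry of the same kind, had 10.8 against 10.9 FPKM, and Kel of the same peptidase family was listed at 0 in both. Mme (neprilysin), a surface peptidase that degrades endothelins and other peptides, had 23.5 FPKM in TIC and 2.90 FPKM in NTC, a log2 ratio of 2.65. The library with less Edn1 and Ednra was therefore the one with more of this degrading enzyme.

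Endothelial cells and the muscle cells of vessels are known sources of Edn1 and Ednra, and their markers were read beside these genes. None of 9 endothelial markers was measured, and their summed level was 3.23 FPKM in TIC and 1.01 FPKM in NTC, the library with more Edn1. In NTC, 5 of the 9, Kdr among them, were listed at 0, and Cldn5 was at 0 in both. Vwf was the 1 marker with a higher value in NTC (0.0148 against 0.663 FPKM) and made up most of the NTC sum. The highest endothelial marker was Kdr with 1.61 FPKM in TIC. Of 8 pericyte and vascular muscle markers, 4 were measured. In TIC 3 of them were higher by 2-fold or more, against 14.6% of all measured genes. They were Mcam (30.7 against 5.86 FPKM), Cspg4 (8.51 against 0.0332) and Pdgfrb (2.44 against 0.0701). Notch3 was lower by as much (0.181 against 38.0 FPKM), against 13.8% of all measured genes. Cspg4 and Pdgfrb passed the filter through TIC alone and Notch3 through NTC alone. The sums of the 8 were 41.9 and 46.2 FPKM, mostly Mcam in TIC and Notch3 in NTC. Rgs5 was at 0 in both. In NTC, Des was at 0, while Abcc9 and Kcnj8 had 1.04 and 1.16 FPKM and were listed at 0 in TIC. The part of such cells in the Ednra difference was not tested.

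Ednrb is known from melanocytes and glia of the neural crest. Of the 6 markers of melanocytes and Schwann cells, 2 were measured, 1 of them higher in TIC by over 2-fold, and the sums were 349.7 FPKM in TIC and 289.0 FPKM in NTC. Nearly all of this was Sox10 (345.8 against 288.1 FPKM), a factor that mammary epithelium also expresses, while Dct was at 0 in both and Tyr at 0 in TIC. The part of these cells in the Ednrb value was not tested.

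Angiotensin receptors were listed low or at 0 in both libraries. Agtr1a, the main angiotensin II receptor (chromosome 13, 30428225 to 30474736, build mm9), had 0.923 FPKM in TIC and 1.12 FPKM in NTC, a log2 ratio of -0.14 close to that of the median gene (-0.16). The sign of its ratio turned (0.02) after centring all ratios on that median. Agtr1b and Agtr2, the other receptors, were listed at 0 in both, and Mas1 had 0.0477 against 0.346 FPKM.

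The enzymes and substrate around the receptor were listed low or higher in NTC. Agt, the precursor angiotensinogen, had 4.30 FPKM in NTC, and Ren1 had 0.195 FPKM there. Both were listed at 0 in TIC, and Ren2, Enpep and Cma1 were at 0 in both. Ace, which makes angiotensin II, had 1.98 against 3.89 FPKM. The prorenin receptor gene Atp6ap2 had 8.08 against 16.2 FPKM, and Agtrap, a protein that binds the receptor, 7.35 against 5.51 FPKM. Anpep, a broad aminopeptidase that also trims angiotensin peptides, had 14.2 FPKM in TIC and 635.2 FPKM in NTC, a log2 ratio of -5.38. Of 5 measured genes of this list besides Agtr1a, 2 (Agt and Anpep) were lower in TIC by 2-fold or more, against 13.8% of all measured genes, and none was higher by as much. Agt passed the filter through NTC alone. The median log2 ratio was -0.92.

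The 2 prostaglandin E2 receptors among the 10 genes were both lower in TIC, but 1 of the pair cannot be read on its own. Ptger4 (chromosome 15, 5183404 to 5193831, build mm9), which signals through cyclic AMP, had 0.974 FPKM in TIC and 4.26 FPKM in NTC, about 66.7 to 67.7 and 301 to 305 reads. NTC was 4.38 times as high, and the log2 ratio of -1.41 came within 2-fold (-0.63) with a pseudocount of 5 FPKM. Ptger1, the calcium-raising receptor, had 2.71 FPKM in TIC and 9.96 FPKM in NTC, a log2 ratio of -1.56. The locus that the files give for Ptger1 spans 32.5 kb, although the gene spans 6.11 kb in RefSeq. Its values may therefore hold reads from outside the gene, and they are uncertain.

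The remaining prostaglandin E2 receptors changed which member was highest. Ptger2, the other cyclic AMP receptor, had 4.79 FPKM in TIC and 2.62 FPKM in NTC, within 2-fold, and Ptger3 had 0.0276 and 0.187 FPKM. Leaving out the uncertain Ptger1, the 3 receptors summed to 5.79 FPKM in TIC and 7.06 FPKM in NTC. Ptger2 held 82.7% of that sum in TIC and 37.0% in NTC, and Ptger4 held 16.8% and 60.3%. The leading receptor of the 3 was Ptger2 in TIC and Ptger4 in NTC.

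Genes that make and carry prostaglandins were read next. Of 20 genes in this list besides the 2 receptors, 9 were measured. In TIC 3 of these were higher and 1 lower by 2-fold or more, against 14.6% and 13.8% of all measured genes, and the median log2 ratio was 0.41. Of the 3, Ptgs2 and Abcc4 passed the filter through TIC alone. Ptgs2, the inducible cyclooxygenase, had 2.95 FPKM in TIC and 0.0799 FPKM in NTC. The transporters Abcc4 (19.2 against 0.927 FPKM), which exports prostaglandins, and Slco2a1 (76.8 against 20.4 FPKM), which takes them up, were also higher in TIC. Ptges2, a prostaglandin E synthase, was the lower gene, with 3.36 against 9.81 FPKM.

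**Figure D3:**
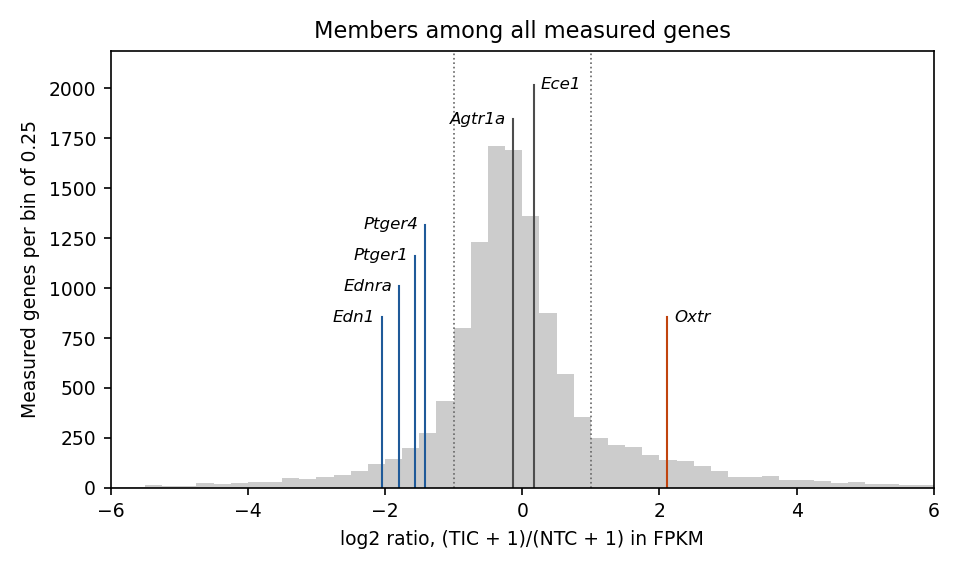
Number of measured genes in each bin of 0.25 of the log2 ratio (grey bars, bins beyond 6 in either direction not shown), with lines at the ratios of the 7 measured genes and dotted lines at 2-fold. Oxtr lies at 2.11 in the upper tail, Edn1, Ednra, Ptger1 and Ptger4 lie between -2.05 and -1.41, and Agtr1a and Ece1 lie in the centre.

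Downstream of these receptors, the shares of signalling genes that differed were near those of all genes, and contractile genes were mostly higher in TIC. Of 29 measured genes of G proteins and calcium, 21 lay within 2-fold. In TIC 5 (17.2%) were higher and 3 (10.3%) lower by at least that much, against 14.6% and 13.8% of all measured genes, around a median log2 ratio of 0.01. Of the 5, Mylk passed the filter through TIC alone. Gnaq and Gna11, the Gq proteins that couple the oxytocin receptor, had 58.2 against 33.5 FPKM and 39.1 against 44.9 FPKM. The higher genes were Mylk, the kinase that switches on smooth muscle myosin (76.4 against 0.590 FPKM, an entry of several gene identifiers), Rgs2, a brake on Gq signals (15.5 against 1.82), Stim1, the calcium sensor of the endoplasmic reticulum (38.1 against 9.86), Ppp1r12a of myosin phosphatase (57.0 against 24.8) and Plcb4, a phospholipase C (7.44 against 2.90). The lower genes were Arrb1, an arrestin that silences receptors (26.7 against 80.8, also a joined entry), Orai1, the channel that Stim1 opens (11.3 against 28.1), and Plcb1 (1.54 against 4.20). Members of the same step thus differed in direction, as Plcb4 and Plcb1 and Stim1 and Orai1 did.

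Of 12 contractile genes, all measured, 11 were higher in TIC by 2-fold or more, against 14.6% of all measured genes. The other, Myl6, lay within 2-fold (0.49), and the median log2 ratio was 5.23. Actg2, Myh11 and Cnn1 passed the filter through TIC alone. Lmod1, Smtn, Tpm1 and Cald1 had log2 ratios of 1.22 to 1.69, Cald1 from an entry of several gene identifiers. Besides Acta2, smooth muscle actin, the largest ratios were those of Myl9, a myosin light chain (560.2 against 1.54 FPKM), Myh11, smooth muscle myosin (95.7 against 0.200), Tpm2, a tropomyosin (144.5 against 1.58), and Cnn1, calponin (71.3 against 0.501). Acta2, Myh11 and Cnn1 are also in the basal list. The library with the contractile proteins therefore had more Oxtr but less Ednra and Ptger4 than the other. Fibroblast markers, which can go with contractile genes, summed to 171.4 FPKM in TIC and 2.37 FPKM in NTC, with 3 of 7 measured and all of those higher in TIC by 2-fold or more. Dcn made up most of this (151.8 against 1.51 FPKM), and Col1a2 (9.56 against 0.0119) and Pdgfra (8.83 against 0.513) were the others measured. Fap was at 0 in both, and Col1a1 had 0.459 against 0.339 FPKM. Their part in the contractile and Oxtr values was not tested.

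**Figure D4:**
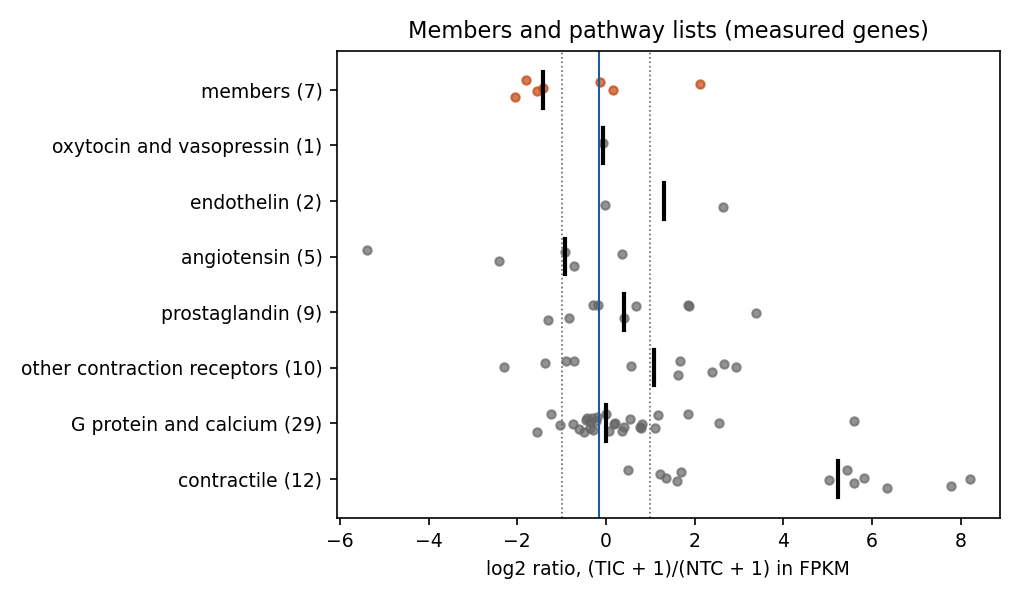
log2 ratio of each measured gene in the 10-gene set and in 7 pathway lists, with the number measured in brackets, a black bar at each median, a blue line at the median of all measured genes (-0.16) and dotted lines at 2-fold. The contractile genes have a median of 5.23, although Myl6 (0.49) lies within 2-fold. Lmod1, Smtn, Tpm1 and Cald1 lie at 1.22 to 1.69. The G protein and calcium genes centre near 0, and 4 of the 7 measured members lie to the left of the lower dotted line.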

How the data were processed

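RNA from 1 TIC and 1 NTC library was sequenced after kit amplification of a small amount of RNA, per the labels' protocols. The authors deposited 1 FPKM value for each gene and library. Tools named in the submitters' processing notes are TopHat 1.4.0, CASAVA 1.8.2, Cuffdiff and Cufflinks, with build mm9 and no roles or settings. The loci are headed as human, but 99.7% of 20009 symbols found in RefSeq (GRCm38.p6) lay on the same mouse chromosome. Starts count from 0 (for 6714 genes end minus start equals the RefSeq length), so 1 was added.

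No count model was fitted. Ratios used a pseudocount of 1 FPKM, and a mean of at least 1 FPKM made a gene measured (python 3.11.15, pandas 2.3.3; tested on simulated data). Depth was taken from receptor genes with loci below 1.5 kb, as the median of FPKM × kb in a window of 0.035 to 0.065. It was 0.0476 for TIC, from 23 genes, and 0.0463 for NTC, from 39. The estimate could only fall inside that window, and whether the values form steps was not tested. The simulated depth also lay inside the window. Read numbers multiply FPKM by the length of GENCODE protein-coding transcripts and are rough, since amplified reads are not independent molecules.

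The 10 genes and the lists were chosen with earlier results of these data known. The oxytocin, vasopressin, endothelin and angiotensin genes were named, except what is not reported here, of other lists up to 5 measured genes at least 2-fold apart in each direction with the largest ratios, of markers the highest for each cell type, and the 3 genes nearest to Oxtr. Gnaq, Gna11, Ptger2, Ptger3, Ndufs5, Actg2, Myl6, Lmod1, Smtn, Tpm1, Cald1 and further markers were named after their values were seen. Alternatives were other pseudocounts, scalings and filters.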

Additional observations from a re-analysis of the deposited data

How the results depend on the processing

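Oxtr stayed at least 2-fold higher in TIC and Ednra at least 2-fold lower under all 5 pseudocounts and scalings tried, with log2 ratios of 1.38 to 2.43 and -1.90 to -1.46. With a pseudocount of 5 FPKM, the lower genes of the set went from 4 to 1 of 7. Edn1 (-0.72), Ptger1 (-0.96) and Ptger4 (-0.63) then came within 2-fold. Of 68 measured pathway genes, the lower ones went from 8 to 4 and the higher ones from 25 to 20. Over all 12004 measured genes, the lower ones went from 1658 to 921 and the higher ones from 1749 to 1086. With a mean of at least 5 FPKM, 2 of 4 genes of the set and 5 of 53 pathway genes were lower, because fewer genes were tested. With a pseudocount of 0.1 FPKM, Edn1 reached -4.56, Ednrb 2.79 and Ptger4 -2.02. Without Ptger1 and Ece1, an alternative added after seeing the data, 1 of 5 was higher and 3 lower. The shares over all measured genes were 14.6% and 13.8%. Depth limits Edn1 in TIC, Ednrb, Agtr1a and the genes listed at 0. No paired analysis was possible because each group has 1 library.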

Other observations

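Receptors of other contracting or relaxing signals had values in both directions. Of 26 in this list, 10 were measured. In TIC 5 of these were higher and 2 lower by 2-fold or more, against 14.6% and 13.8% of all measured genes, and the median log2 ratio was 1.09. Htr2a, P2ry1 and Lpar1 passed the filter through TIC alone and P2ry2 through NTC alone, so that they had to differ and their count supports nothing. Higher in TIC were P2ry1, a receptor for ADP (7.44 against 0.110 FPKM), Npr2, the receptor of C-type natriuretic peptide (13.8 against 1.32, an entry of several gene identifiers), F2r, the thrombin receptor (18.9 against 5.28), and Lpar1, a receptor for lysophosphatidic acid (4.26 against 0.711). Htr2a, a serotonin receptor, was also listed at 0 in NTC, against 4.24 FPKM in TIC. Lower in TIC were F2rl1, a receptor that trypsin-like proteases cut open (2.10 against 14.2 FPKM), and P2ry2, a receptor for ATP and UTP (0.675 against 3.32).

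P2ry6, another purine receptor of the list with a mean below 1 FPKM, had 0.0317 against 1.54 FPKM and was named after its values were seen. Leukocyte markers were low, with 2 of 8 measured, both within 2-fold, sums of 2.44 FPKM in TIC and 2.23 FPKM in NTC, Ptprc, Emr1 and Cd3e at 0 in both, and Lyz2 the highest (1.56 against 0.727 FPKM).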
